A study of Homo sapiens with 6 samples.

Results

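WDR5, RBBP5, ASH2L and DPY30 form the shared core of the human MLL/SET1 histone methyltransferase complexes (WRAD, after the initials of the 4 subunits), and KMT2A, KMT2B, KMT2C, KMT2D, SETD1A and SETD1B are the 6 alternative catalytic subunits. These 10 genes were taken by symbol, and all 10 were present among the 26334 genes of the count table and among the 16117 genes that passed the filter on low counts. Their messenger RNA was measured by poly-A RNA-seq in MCF10DCIS.com, a human breast cancer line of the MCF10A lineage that forms lesions resembling ductal carcinoma in situ when grown in mice. The cells of all 6 libraries were grown in DMEM/F12 with horse serum, infected with a pRSI-U6 vector carrying TagRFP and a puromycin resistance gene, and selected with puromycin. In 3 libraries (shLuc) the vector carried a control hairpin named for luciferase, and in 3 libraries (shWDR5) it carried shWDR5. The labels name a single shWDR5 vector, whereas the study's methods describe a pool of hairpins against WDR5. The comparison asked how silencing of WDR5 changed the transcripts of its own complex.

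These complexes place methyl groups on lysine 4 of histone H3 (H3K4), a mark of active promoters and enhancers. The SET-domain enzymes are weak alone. WDR5 is a ring-shaped WD40-repeat protein that holds the enzyme through a short arginine-containing motif and bridges it to RBBP5, while RBBP5 and ASH2L together stimulate the SET domain and DPY30 docks on ASH2L. Each enzyme pair has its own partners and preferred sites: SETD1A and SETD1B provide most of the trimethylation at promoters, KMT2A and KMT2B act with menin at selected promoters such as those of HOX genes, and KMT2C and KMT2D monomethylate enhancers.

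Library depth was 38218108 to 57640167 counted reads, and the 10 genes held 941 to 12714 reads per library. The SD between replicates of a group was 1.54% to 8.83% of the group mean over these genes. Of 7 markers of basal breast epithelium fixed for the check of the cell type, levels were 13.7 to 2822 RPKM (reads per kilobase of exon, scaled to library size) and 6 rose in shWDR5. The median log2 fold change of the 7 was 0.91, with KRT6A the largest at 1.83. The 4 general epithelial markers lay at 48.7 to 969 RPKM. Among them EPCAM and CDH1 fell (log2 fold changes -0.33 and -1.03), and KRT8 and KRT18 were not called. The summed level of 7 markers of fibroblasts, endothelium and leukocytes was 11.0 to 12.6 RPKM in shLuc and 9.19 to 10.7 RPKM in shWDR5, with COL1A1 and PECAM1 called lower among the 5 tested and COL1A2 and PTPRC at 0 to 7 reads per library. The part of these marker differences in the results below was not tested. Across all genes, 56.5% were called at an edgeR adjusted p under 0.05, 29.9% lower and 26.6% higher in shWDR5, so that a call as such was common in these data. Among the 10 complex genes 7 were called, 4 lower (WDR5, ASH2L, DPY30 and KMT2A) and 3 higher (RBBP5, SETD1A and SETD1B), and the median log2 fold change was 0.08 against -0.01 over all genes tested. The groups did not overlap for 8 of the 10 genes, against 62.3% of all genes tested. Both shares of the 10 genes have to be read against these backgrounds, and the size of each change says more than its call.

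WDR5, the targeted gene, was checked first. In shLuc it stood at 52.6, 48.5 and 51.3 CPM (library-size-scaled counts, with TMM factors), and in shWDR5 at 23.4, 24.4 and 20.8 CPM. Each shWDR5 library was below each shLuc library. The log2 fold change was -1.15 ± 0.07 (SE, n = 3 per group; edgeR adjusted p = 8.67e-07), which left 0.450 of the control level, a reduction of 55.0%. In bulk RNA, fewer cells with the transcript and less transcript per cell cannot be told apart. Of all genes tested, 2.91% had a log2 fold change at least as low. WDR5 lies on the plus strand at chr9:137001210-137025094 (hg19), and no exon of another gene overlapped its exons in the authors' annotation.

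**Figure D1:**
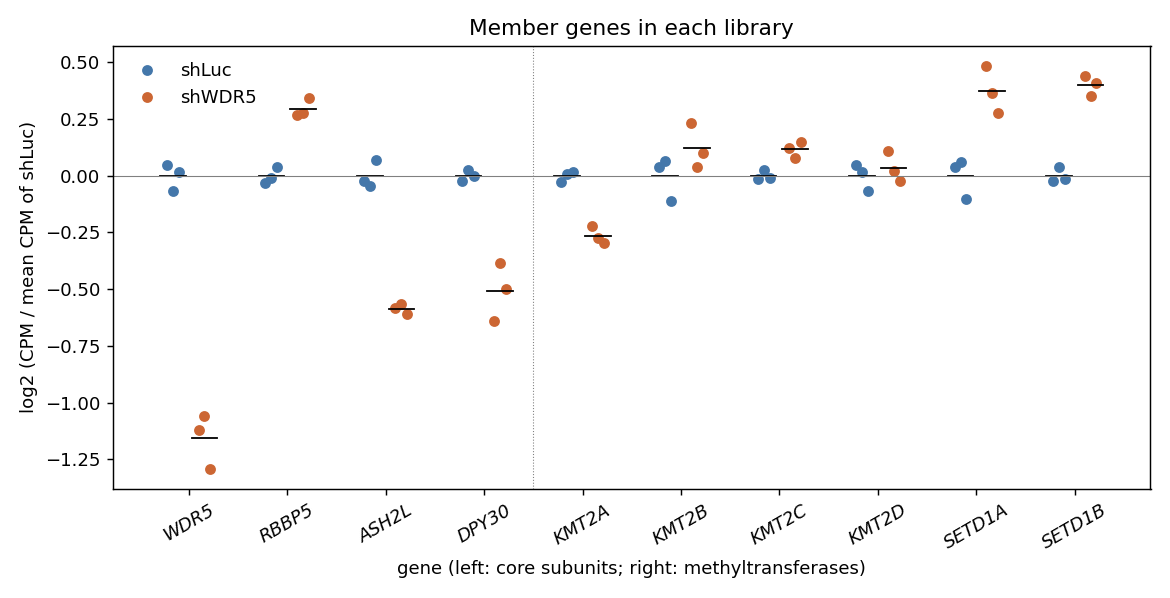
Each point is a library, placed by the log2 ratio of its CPM to the mean CPM of the 3 shLuc libraries, and short bars are group means. WDR5, ASH2L, DPY30 and KMT2A lie lower in shWDR5 and RBBP5, SETD1A and SETD1B higher, without overlap, whereas the groups overlap for KMT2B and KMT2D.

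The human genome holds a WDR5 copy without introns, WDR5B, on the minus strand at chr3:122130700-122134882 (hg19), so the similarity of both coding sequences was examined to see how far short reads could be shared. In GENCODE release 29, the coding sequences (1005 bases for WDR5, 993 for WDR5B) were identical at 80.9% of 993 aligned bases, and the longest identical stretch was 30 bases. The 60 bases around that stretch, which end at the stop codon, are shown because they hold the longest identical stretch. Other windows were not searched for fewer differences. Capitals mark the 9 positions that differ, in the last exon of WDR5 (chr9:134157934-134157993, GRCh38, plus strand) and in the single exon of WDR5B (chr3:122414536-122414595, GRCh38, minus strand).
WDR5: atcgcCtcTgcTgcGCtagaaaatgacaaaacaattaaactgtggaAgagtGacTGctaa
WDR5B: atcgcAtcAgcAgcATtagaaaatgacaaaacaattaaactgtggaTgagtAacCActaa
WDR5B was measured at 7.08, 8.33 and 8.38 CPM in shLuc and at 7.94, 8.16 and 8.18 CPM in shWDR5. The groups overlapped, and the log2 fold change was 0.03 ± 0.09 (SE; edgeR adjusted p = 0.766). No loss of reads was thus detectable at the copy. Per length, WDR5 was 7.65 to 9.75 times as abundant as WDR5B in the shLuc libraries and 3.33 to 3.92 times in the shWDR5 libraries.

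The other core subunits moved in opposite directions. ASH2L, whose SPRY domain contacts RBBP5, was downregulated from 39.8, 39.1 and 42.4 CPM in shLuc to 27.0, 27.3 and 26.5 CPM in shWDR5. The groups were far apart relative to their spread, and the log2 fold change was -0.59 ± 0.06 (SE; edgeR adjusted p = 2.05e-05), a reduction of 33.4%. DPY30, the small dimeric subunit that docks on ASH2L, stood at 38.9, 40.1 and 39.5 CPM in shLuc and at 25.4, 30.3 and 27.9 CPM in shWDR5. It varied more among the shWDR5 libraries than among the controls, but all were below the controls (log2 fold change -0.50 ± 0.07, SE; adjusted p = 0.000201), a reduction of 29.4%. RBBP5, the WD40 protein that contacts the SET domain, went the other way, from 29.2, 29.7 and 30.7 CPM in shLuc to 35.9, 36.2 and 37.9 CPM in shWDR5. Its log2 fold change was 0.30 ± 0.06 (SE; adjusted p = 0.00167), an increase of 22.8%. In size, the changes of ASH2L and DPY30 were within the range common in these libraries: 13.1% of all genes tested had a log2 fold change at least as low as ASH2L, 16.1% one at least as low as DPY30, and 24.5% one at least as high as RBBP5. The 3 genes lie at chr8:37963011-37997598 (plus strand), chr2:32248972-32264844 (minus strand) and chr1:205055270-205091150 (minus strand) in hg19, and none shared exonic sequence with another annotated gene.

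Because library scaling cancels in ratios between genes of the same library, the balance of the core subunits was computed per library from RPKM. The level of WDR5 relative to the geometric mean of RBBP5, ASH2L and DPY30 was 1.05, 0.960 and 0.984 in shLuc and 0.573, 0.559 and 0.487 in shWDR5. The difference of the log2 ratio was -0.89, smaller than the -1.15 of WDR5 itself, as 2 of the 3 partners also fell. All shWDR5 values were below all shLuc values, which gave an exact two-sided permutation p of 0.1, the smallest that 3 against 3 libraries allow (0.138 after adjustment over the 11 ratios computed). The pair RBBP5 and ASH2L showed the strongest shift among the ratios that leave out WDR5. RBBP5 reached 0.549, 0.567 and 0.541 of the ASH2L level in shLuc and 0.994, 0.990 and 1.07 of it in shWDR5, a log2 difference of 0.88. Both genes were already separate between the groups, in opposite directions, so their ratio had to separate as well. Its exact permutation p of 0.1 (0.138 after adjustment over the 11 ratios) therefore adds nothing to the calls of RBBP5 and ASH2L. Like the other ratios between single genes, it was chosen after values were seen. By contrast, ASH2L relative to DPY30 was 0.248, 0.236 and 0.260 in shLuc and 0.258, 0.219 and 0.230 in shWDR5. These values overlapped (log2 difference -0.08, exact permutation p = 0.4), and no difference between the falls of both genes was detectable.

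**Figure D2:**
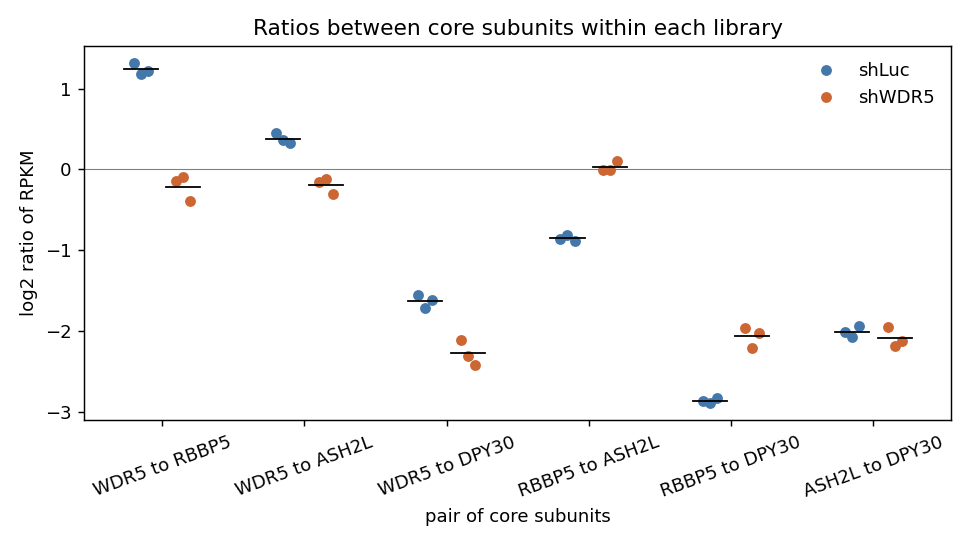
Each point is the log2 ratio of RPKM between a pair of core subunits in a library, with group means as short bars. The ratios of WDR5 to its partners lie lower and those of RBBP5 to ASH2L and DPY30 higher in shWDR5, without overlap, and the ratio of ASH2L to DPY30 overlaps between the groups.

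Of the 6 catalytic subunits, KMT2A was the only one called lower. KMT2A (MLL1, the proto-oncoprotein cut by translocations in acute leukaemia) stood at 159, 163 and 164 CPM in shLuc and at 139, 134 and 132 CPM in shWDR5. The replicates were tight and the groups separate, with a log2 fold change of -0.26 ± 0.05 (SE; edgeR adjusted p = 0.00118), a reduction of 16.8%. A log2 fold change at least as low was seen in 29.2% of all genes tested, and one at least as large in absolute size in 55.8%. KMT2B, its closest paralog, stood at 128, 130 and 115 CPM in shLuc and at 146, 127 and 133 CPM in shWDR5. Those ranges overlapped, and the log2 fold change of 0.12 ± 0.07 (SE) did not pass the test (adjusted p = 0.152). The difference between these paralogs was described through their ratio per library, which was chosen after values were seen. KMT2A relative to KMT2B, in RPKM, was 0.638, 0.642 and 0.730 in shLuc and 0.488, 0.538 and 0.507 in shWDR5. No shWDR5 value reached the lowest control value, and the log2 difference was -0.39 (exact permutation p = 0.1, the smallest possible, or 0.138 after adjustment over the 11 ratios). An antisense gene, LOC101929089, shared 181 exonic bases with KMT2A (chr11:118307205-118397539, hg19, plus strand), and it held 0 to 3 reads per library.

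The SET1 enzymes rose together. SETD1A was upregulated from 42.0, 42.6 and 37.99 CPM in shLuc to 57.1, 52.6 and 49.5 CPM in shWDR5, with a log2 fold change of 0.38 ± 0.07 (SE; edgeR adjusted p = 0.00123). SETD1B rose from 41.8, 43.6 and 42.0 CPM to 57.6, 54.2 and 56.4 CPM, with a log2 fold change of 0.40 ± 0.06 (SE; adjusted p = 0.000157). Every shWDR5 library was above every control library for both genes, the increases being 29.9% and 32.1%. Of all genes tested, 19.97% had a log2 fold change at least as high as SETD1A and 18.8% at least as high as SETD1B. The ratio of SETD1A to SETD1B, in RPKM, was 1.28, 1.24 and 1.15 in shLuc and 1.26, 1.23 and 1.11 in shWDR5, so that no difference between the paralogs was detectable (log2 difference -0.02, exact permutation p = 0.6). SETD1A lies on the plus strand at chr16:30968615-30995983 and SETD1B on the plus strand at chr12:122242638-122270562 (hg19). The non-coding gene LINC01089, which starts 1248 bases from SETD1B on the opposite strand, had a log2 fold change of 0.51 ± 0.10 (SE; adjusted p = 0.00146).

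Neither enhancer enzyme passed the test. KMT2C (chr7:151832010-152133090, hg19, minus strand) stood at 62.0, 63.9 and 62.4 CPM in shLuc and at 68.4, 66.2 and 69.5 CPM in shWDR5. The groups did not overlap, but the log2 fold change of 0.12 ± 0.05 (SE) missed the threshold (edgeR adjusted p = 0.0829). KMT2D (chr12:49412758-49449107, hg19, minus strand) stood at 228, 224 and 211 CPM in shLuc and at 238, 224 and 217 CPM in shWDR5. Its groups overlapped, with a log2 fold change of 0.04 ± 0.06 (SE; adjusted p = 0.617). Of all genes tested, 93.4% had a log2 fold change at least as large in absolute size as KMT2D. KMT2B lies on the plus strand at chr19:36208921-36229781 (hg19), and like KMT2C and KMT2D it shared no exonic sequence with another annotated gene.

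Compared per length, the core subunits spanned a wider range than the enzymes only through DPY30. Without DPY30, the core means spanned 6.77 to 15.96 RPKM in shLuc and 7.17 to 8.31 RPKM in shWDR5. The enzyme means spanned 3.72 to 14.6 RPKM in shLuc and 4.04 to 15.97 RPKM in shWDR5. Of the 10 genes, DPY30 was the most abundant in both groups, at 49.4 ± 0.80 RPKM (SD, n = 3) in shLuc and 34.8 ± 3.07 RPKM in shWDR5, and KMT2C the least, at 3.72 ± 0.06 and 4.04 ± 0.10 RPKM. DPY30 has only 800 exonic bases in the annotation, which makes its level per length more sensitive to the annotated ends than that of KMT2D, with 19419 bases. In shLuc the order after DPY30 was WDR5 (15.96 RPKM), KMT2B (14.6), ASH2L (12.2), KMT2D (11.4), KMT2A (9.78), RBBP5 (6.77), SETD1A (6.33) and SETD1B (5.18). Only the neighbours WDR5 and KMT2B overlapped in this group. In shWDR5 the WDR5 transcript moved from the second rank to the eighth, at 7.17 ± 0.58 RPKM, where it overlapped with SETD1B (6.84 RPKM). RBBP5 (8.31 RPKM), SETD1A (8.23), ASH2L (8.16) and KMT2A (8.14) formed a run of neighbours in shWDR5 that overlapped from each to the next, whereas these 4 genes did not overlap as neighbours in the controls.

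**Figure D3:**
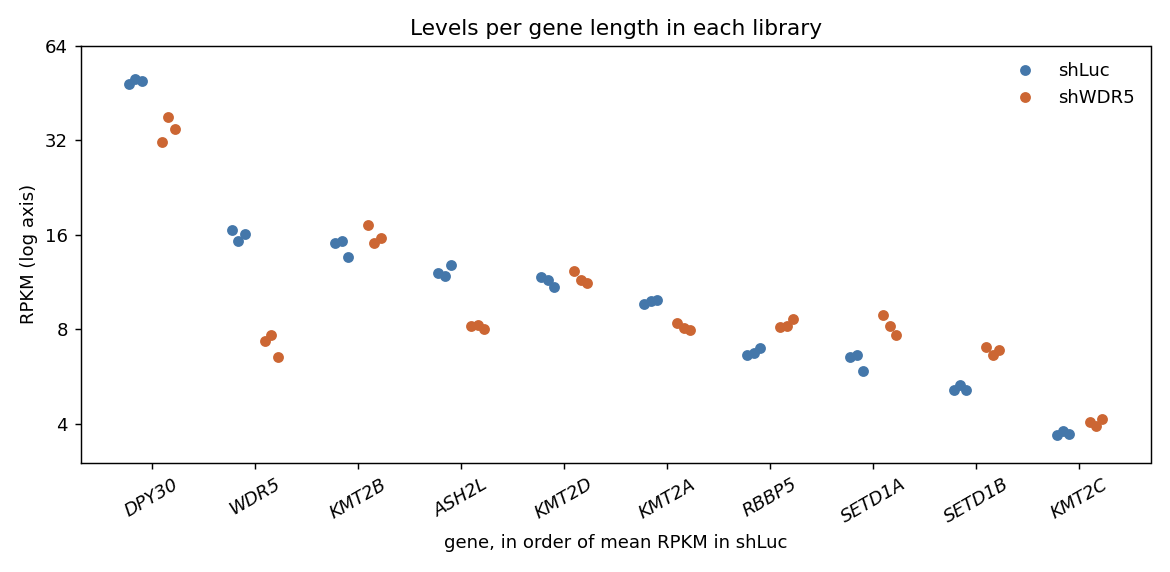
Each point is the RPKM of a gene in a library on a log axis, with genes ordered by their mean in shLuc. WDR5 lies near 16 RPKM in shLuc and near 7 RPKM in shWDR5, and RBBP5, SETD1A, ASH2L and KMT2A come together near 8 RPKM in shWDR5.

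The make-up of the enzyme pool was then expressed as each gene's share of the summed RPKM of the 6 methyltransferases, a quantity that does not depend on library scaling. The sum itself was 51.0 ± 1.77 RPKM (SD, n = 3) in shLuc and 54.9 ± 2.53 RPKM in shWDR5. KMT2A held 18.6%, 18.8% and 20.2% of the pool in shLuc and 14.5%, 15.2% and 14.9% in shWDR5, a difference of -4.34 percentage points. SETD1A went from 12.4% ± 0.33 to 14.99% ± 0.56 and SETD1B from 10.2% ± 0.29 to 12.5% ± 0.36. KMT2D held 22.3% ± 0.38 in shLuc and 21.3% ± 0.34 in shWDR5, and its level was not called. Without division by gene length, the difference in share was -0.21 points in place of -1.03 for KMT2D and 1.62 in place of 2.59 for SETD1A. For KMT2A, SETD1A, SETD1B and KMT2D the shares per length did not overlap between the groups and the exact two-sided permutation p was 0.1, the smallest that the design allows, or 0.15 after adjustment over the 6 enzymes. The shares of KMT2B (28.7% ± 0.90 and 29.1% ± 0.81, exact permutation p = 0.5) and KMT2C (7.30% ± 0.22 and 7.36% ± 0.34, exact permutation p = 0.8) overlapped between the groups, with differences of 0.40 and 0.07 points, or 1.07 and 0.50 without division by length.

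**Figure D4:**
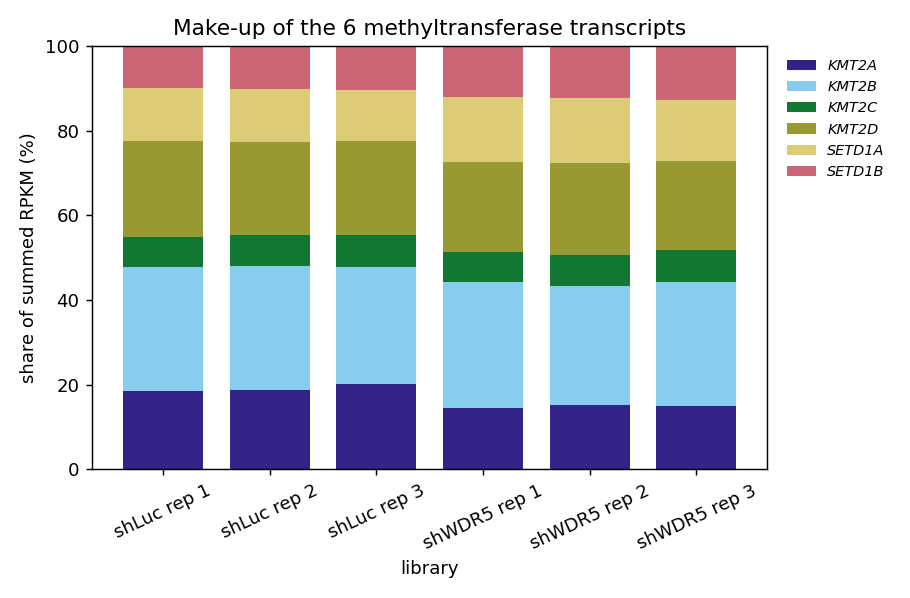
Stacked bars give, for each library, the percentage of the summed RPKM of the 6 methyltransferase genes held by each. The KMT2A segment is 18.6% to 20.2% in shLuc and 14.5% to 15.2% in shWDR5, and both SETD1 segments are larger in shWDR5.

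Promoter sequence was examined for the genes with a window in the RefSeq table (GRCh38.p14, the bases around the annotated start), which matched 7 of the 10 genes, WDR5 with several windows. The letters searched on both strands were CACGTG (E-box, bound by MYC and related factors), GGGCGG (GC box, bound by SP1), CCAAT (bound by NF-Y), CCGGAA (core of ETS sites) and AAGATGG (core of YY1 sites). None of these holds another, but neighbouring matches can share bases. The GC box was in a window of 6 of the 7 genes, beside 45.0% of all 35116 windows, and RBBP5 was the exception. Here and below, genes are counted by a match in any of their windows, whereas the percentages are per window. WDR5, with several windows, thus had more chances of a match, and enrichment was not tested. The E-box was in a window of WDR5 and of KMT2D (7.26% of all windows), the ETS core in those of WDR5 and KMT2A (17.2%), CCAAT in a WDR5 window (34.6%), and the YY1 core in that of KMT2B (5.84%). The windows of a pair of genes that rose, RBBP5 and SETD1A, and of the enzyme that fell, KMT2A, are shown so that genes moving in opposite directions can be compared. Capitals mark the letters found on either strand, overlapping matches running together, which are matches in these windows and not shown sites. The windows lie at chr1:205121929-205122228 (minus strand), chr16:30957504-30957803 (plus strand) and chr11:118436242-118436541 (plus strand).
RBBP5: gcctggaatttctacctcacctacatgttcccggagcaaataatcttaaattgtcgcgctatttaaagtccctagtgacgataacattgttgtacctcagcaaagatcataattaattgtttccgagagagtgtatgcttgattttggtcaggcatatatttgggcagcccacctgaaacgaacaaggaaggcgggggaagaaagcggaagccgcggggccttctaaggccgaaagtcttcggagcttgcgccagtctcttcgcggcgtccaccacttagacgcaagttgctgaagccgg
SETD1A: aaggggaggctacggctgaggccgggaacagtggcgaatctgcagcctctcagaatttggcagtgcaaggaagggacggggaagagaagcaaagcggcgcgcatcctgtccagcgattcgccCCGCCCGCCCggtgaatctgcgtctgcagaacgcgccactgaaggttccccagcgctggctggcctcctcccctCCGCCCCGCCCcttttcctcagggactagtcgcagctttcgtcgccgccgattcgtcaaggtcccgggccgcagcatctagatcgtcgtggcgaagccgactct
KMT2A: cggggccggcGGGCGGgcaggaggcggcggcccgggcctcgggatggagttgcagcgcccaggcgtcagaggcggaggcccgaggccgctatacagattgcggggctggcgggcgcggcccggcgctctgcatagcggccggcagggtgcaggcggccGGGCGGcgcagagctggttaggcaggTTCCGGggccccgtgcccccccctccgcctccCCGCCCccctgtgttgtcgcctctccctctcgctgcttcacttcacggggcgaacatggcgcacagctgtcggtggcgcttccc
The RBBP5 window was 49.3% G and C and held none of the letters searched, the SETD1A window was 65.0% G and C with GC boxes as its only matches, and the KMT2A window was 76.3% G and C with GC boxes and an ETS core. Without any match in its window, RBBP5 could share none with SETD1A or KMT2A, so these letters cannot relate it to either direction. The GC box was in the windows of both SETD1A, which rose, and KMT2A, which fell.

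The partners that distinguish the complexes were mostly lower. Of 12 accessory subunits, all tested, 8 were called lower and none higher, beside 29.9% and 26.6% of all genes tested, and their median log2 fold change was -0.25 against -0.01. The list was chosen with earlier results of these data known. In absolute size, the median log2 fold change of all genes tested was 0.308. Among the called subunits, MEN1, HCFC1, PAGR1 and BOD1L1 changed by less than this, and PSIP1, HCFC2, BOD1 and PAXIP1 by more. The subunits of the KMT2A and KMT2B complexes both fell: PSIP1 (LEDGF, which tethers menin and KMT2A to chromatin) stood at 108, 141 and 126 CPM in shLuc and at 67.1, 79.7 and 85.9 CPM in shWDR5 (log2 fold change -0.69 ± 0.11, SE; edgeR adjusted p = 0.000328). Those groups were wide but separate. MEN1 (menin) fell by 0.22 ± 0.06 on the log2 scale (adjusted p = 0.0105). HCFC2, a host cell factor paralog, had the largest change of the list, from 10.4, 12.6 and 11.97 CPM to 6.63, 7.21 and 7.72 CPM (log2 fold change -0.70 ± 0.10; adjusted p = 0.000129), and HCFC1, the host cell factor shared by several WDR5 complexes, fell by 0.30 ± 0.06 on the log2 scale (adjusted p = 0.00152).

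The partners of KMT2C and KMT2D were divided. PAXIP1 (PTIP) and its binding partner PAGR1 fell, with log2 fold changes of -0.32 ± 0.06 and -0.28 ± 0.06 (adjusted p = 0.00151 and 0.00274). NCOA6, a nuclear receptor coactivator, and KDM6A, the H3K27 demethylase UTX, had log2 fold changes of 0.07 ± 0.05 and -0.10 ± 0.06 that did not pass the test. Of the subunits found with SETD1A and SETD1B, which themselves rose, none was called higher. CXXC1, the CpG-binding CFP1, and WDR82, which binds the polymerase II tail, were not called, with log2 fold changes of -0.07 ± 0.07 and 0.06 ± 0.05. BOD1 fell from 30.6, 29.6 and 30.2 CPM to 19.9, 21.2 and 19.2 CPM (log2 fold change -0.58 ± 0.07; adjusted p = 3.25e-05), and its paralog BOD1L1 fell by 0.21 ± 0.06 on the log2 scale (adjusted p = 0.00884).

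**Figure D5:**
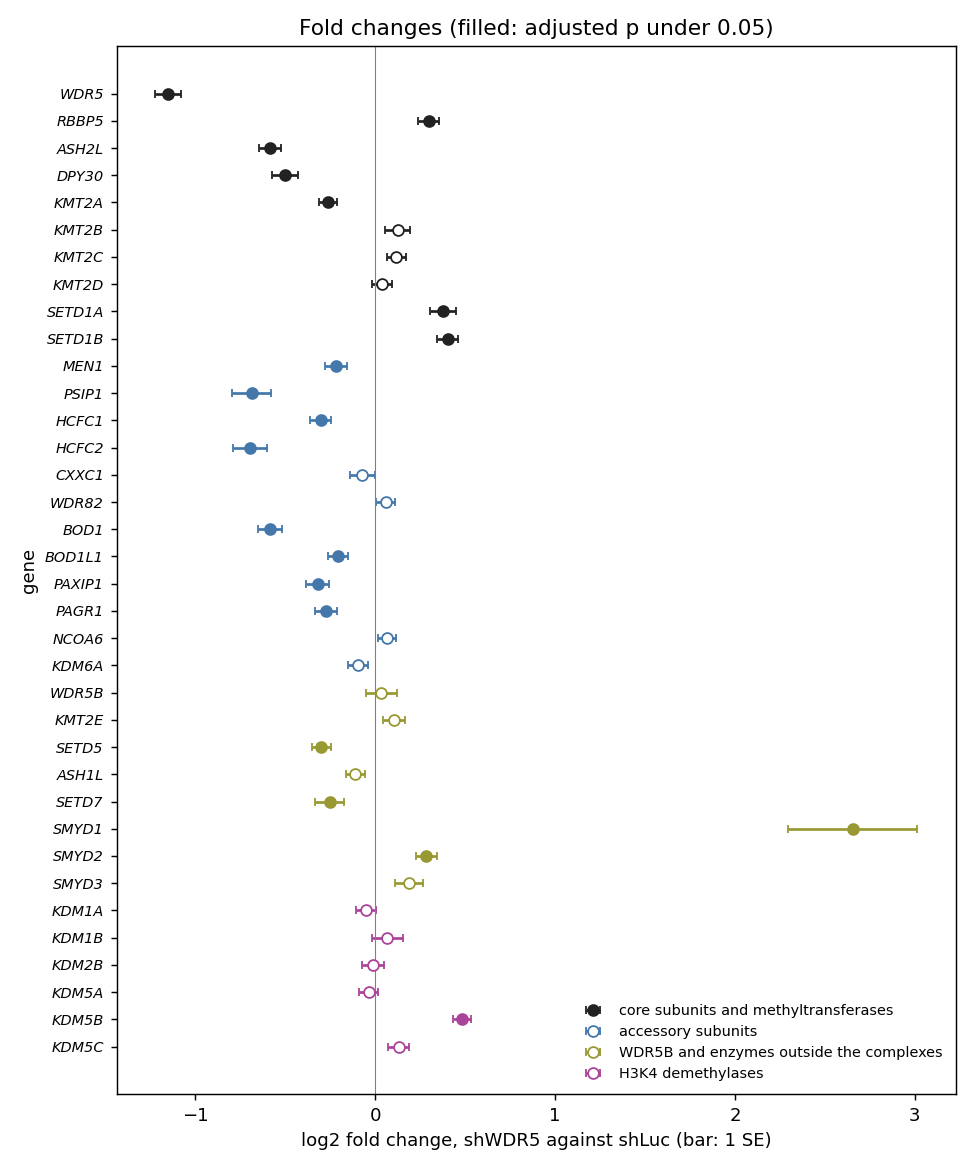
Points are log2 fold changes of shWDR5 against shLuc with bars of 1 SE, filled where the edgeR adjusted p was under 0.05. The filled accessory subunits all lie below 0, whereas core subunits and methyltransferases lie on both sides.

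Of 6 H3K4 demethylases 1 was called, against 56.5% of all genes tested, and their median log2 fold change was 0.03 against -0.01. It was KDM5B (JARID1B), which rose from 163, 165 and 170 CPM in shLuc to 235, 227 and 235 CPM in shWDR5. The groups were clearly separate, and the log2 fold change was 0.48 ± 0.05 (SE; edgeR adjusted p = 1.83e-05), larger in size than that of any of the 6 methyltransferases. Changes of this size were common in these libraries. At least as large in absolute size as the slightly larger change of DPY30 (-0.50) were 30.6% of all genes tested. The other demethylases (KDM1A, KDM1B, KDM2B, KDM5A and KDM5C) had log2 fold changes from -0.05 to 0.13 and were not called. The count became 2 without shLuc replicate 1 or with upper-quartile factors, where KDM5C was added (adjusted p = 0.0353 and 0.0494). Of 9 further genes with a SET domain or related to WDR5, 8 were tested and 4 called, 2 lower and 2 higher, a share no higher than the 56.5% of all genes tested. Their median log2 fold change was 0.07 against -0.01. SETD5 and SETD7, the latter an H3K4 monomethyltransferase in vitro, fell by 0.30 ± 0.05 and 0.25 ± 0.08 on the log2 scale (adjusted p = 0.000619 and 0.0189). The call of SETD7 was lost without shLuc replicate 2 (adjusted p = 0.0757), without shLuc replicate 3 (0.0877) or without shWDR5 replicate 1 (0.0598). SMYD2 rose with a log2 fold change of 0.28 ± 0.06 (adjusted p = 0.00165). SMYD1, a striated-muscle methyltransferase, was called higher at a very low level, with 4, 8 and 3 reads in shLuc and 43, 36 and 32 reads in shWDR5. KMT2E, ASH1L and SMYD3 were not called, with log2 fold changes of 0.10 ± 0.06, -0.11 ± 0.05 and 0.19 ± 0.08 (SE; adjusted p = 0.174, 0.0982 and 0.0615), and SMYD3 passed the threshold in 5 of 14 refits with other settings. PRDM9, the germ-cell H3K4 methyltransferase, was at 0 CPM in both groups and was not tested.

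A stricter rule was taken from the criteria that the study states for its patient-derived xenografts. It required an absolute log2 fold change of at least 0.6, adjusted p under 0.05 and a group mean over 0.5 RPKM in either group. Fold change, adjusted p and RPKM were those computed here. The rule was met by 18.4% of all genes tested. Of the 10 complex genes it left WDR5 alone, with ASH2L just short of the fold, and of the 12 accessory subunits it left PSIP1 and HCFC2. As a description of the pattern of WDR5 over the 6 libraries, the genes outside the complex with the highest Pearson correlation of log2 CPM with it were SMCO4, UBE2T, CENPI, ATRIP and CCT4 (r = 0.999 to 1.000). Over so few libraries in 2 groups, such values mainly express a fall in shWDR5, and the log2 fold changes of these 5 genes ranged from -1.20 to -0.42.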

How the data were processed

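Poly-A RNA of MCF10DCIS.com cells (3 shLuc and 3 shWDR5 libraries) was sequenced after TruSeq preparation, whose steps as described do not mark strand. The deposited counts are whole reads per gene. The submitters' processing notes name TopHat2 2.1.0, featureCounts, edgeR 3.2.2 and hg19 (GRCh37). Read length and strand setting are not given in the sources used here. The authors' own edgeR results (fold changes and p-values) were not used. Counts were filtered with filterByExpr, scaled by TMM and compared with the quasi-likelihood test of edgeR 4.0.16 (R 4.3.3), with Benjamini-Hochberg adjustment over 16117 genes and a threshold of 0.05. The SE is the absolute log2 fold change divided by the square root of F. RPKM is TMM-scaled CPM per kilobase of the exonic length in the count table. Ratios and shares within libraries were compared with exact permutation tests. DESeq2 1.42.0, limma 3.58.1 (voom), other scalings, no filter, a replicate block and leaving out each library were alternatives. The procedure was tested on simulated counts.

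The genes named are the 10 members, 3 lists of accessory subunits, related enzymes and demethylases (called genes, with uncalled ones given by value or range), neighbours within 2000 bases head to head, and the 5 genes most like WDR5. Members and lists were chosen with earlier results of these data known, and the ratios between single genes after values were seen. The labels do not say whether replicates were separate infections, so p-values measure the spread between these libraries, which may be technical. Within a group, no pair of libraries agreed within sampling noise (chi-square per degree of freedom 7.20 to 18.4). In both groups replicate 1 stood apart: its pairs lay at 14.4 to 18.4, and replicates 2 and 3 at 7.61 (shLuc) and 7.20 (shWDR5).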

Additional observations from a re-analysis of the deposited data

How the results depend on the processing

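The 7 calls among the 10 complex genes held in direction and threshold under all 14 refits (DESeq2, edgeR's exact test, limma-voom, library totals alone, RLE and upper-quartile factors, no filter, the replicate block and each library left out), with WDR5 between -1.21 and -1.09 on the log2 scale. KMT2D, not called in any refit, ranged from -0.02 to 0.07. KMT2C moved past the threshold with upper-quartile factors (log2 fold change 0.15, adjusted p = 0.0381, range over refits 0.0309 to 0.346). The study's fold and level criteria gave 2962 genes (1688 lower, 1274 higher) in place of 9112, with 1 member lower and 0 higher, 2 accessory subunits (2 lower), 0 related enzymes (0 in each direction) and 0 demethylases. The rule adds a fold minimum and a level minimum, which were not applied separately. SMYD1 passed the fold (2.65 on the log2 scale) but not the level (0.0272 and 0.171 RPKM). With the replicate block, 10412 genes were called, 5 members higher (KMT2B and KMT2C added), 7 related enzymes (4 higher) and 2 demethylases. The replicate numbers were not taken to pair the libraries: same-numbered deviations from the group means correlated at 0.64, 0.08 and 0.24, and not every library correlated best with its own number. Demethylases called were also 2 with upper-quartile factors (2 higher), and 1 to 2 with a library left out (1 to 2 higher, 2 without shLuc replicate 1, where KDM5C was added). Related enzymes called lower were 1 to 2 with a library left out: SETD7 lost its call without shLuc replicate 2 (adjusted p = 0.0757), without shLuc replicate 3 (0.0877) and without shWDR5 replicate 1 (0.0598). In shares of reads not divided by length, the difference in share became 0.50 points for KMT2C, -0.21 for KMT2D, 1.62 for SETD1A and 1.82 for SETD1B, since long genes then weigh more. Scaling by library totals moved the median of all genes from -0.01 to -0.07 on the log2 scale. With 3 libraries a group, exact tests of single ratios cannot pass 0.05.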
